A study of Mus musculus with 12 samples.

Results

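The comparison described here asks which genes of the mouse kidney responded differently to ischemic injury when Krt20 had been deleted in renal proximal tubular cells. It used all 12 libraries of the series, 3 in each of 4 groups of male mice aged 8 to 12 weeks. WT sham and cKO sham mice had surgery without clamping. WT IR and cKO IR mice had both renal pedicles closed for 30 min and then 24 h of reperfusion (ischemia/reperfusion, IR). WT is wild type and cKO is the conditional Krt20 knockout. The sources used here do not name the Cre driver or the floxed allele, and they do not say whether the WT mice carried either. Whether the 3 libraries of a group are 3 animals is not given in the labels, so p-values reflect only the spread among the libraries sequenced, which may be technical. For each gene averaging 1 FPKM or more across the series (12868 of 56748 genes), the interaction was the change from sham to IR in cKO minus the same change in WT, on the log2(FPKM + 1) scale. FPKM is fragments normalised to gene length and library size. This scale understates the change of genes with low FPKM. A gene was called where the limma p-value with Benjamini-Hochberg adjustment over those 12868 genes was under 0.05.

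Many of the genes called here are known to respond to interferon. In general, interferons bind receptors that activate JAK kinases and STAT transcription factors. GAS elements in promoters serve the response to interferon gamma, and ISRE elements serve the response to type I interferon. The targets include GTPases that attack intracellular vacuoles, the immunoproteasome and peptide transport for antigen presentation, and antiviral effectors. Tubule cells and resident immune cells can both express such genes. In bulk tissue, fewer cells of a type and less RNA per cell cannot be told apart.

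The interaction was called for 113 of 12868 genes (0.878%). The response was lower in cKO for 75 genes (0.583%) and higher for 38 genes (0.295%). The median interaction over all tested genes was 0.03, and 45.2% of them were negative. With reads scaled to library totals in limma-voom, the calls were 132 lower and 28 higher, and with FPKM rescaled to library totals they were 111 lower and 29 higher. The number of calls also depended on single libraries. It was 150 without WT sham 1, 41 without WT sham 2, 73 without WT sham 3, 71 without cKO sham 1, 43 without cKO sham 2, 62 without cKO sham 3 and 58 without cKO IR 1. A total of 38 of the 113 genes were called whichever single library was left out, and all 113 kept their direction in each of the 23 alternative analyses in which they were tested. Xaf1 and Ccdc6 lay just inside the threshold, both with an adjusted p of 0.0453, and Cd74 (0.0504) and Samhd1 (0.0511) just outside it.

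The group that most often set these genes apart was cKO sham, followed by cKO IR and then WT sham in the count without a model below. By construction, the interaction equals the cKO-minus-WT difference in IR minus that difference in sham, so the 3 contrasts share libraries and the following counts are a description. The genotype difference was called in sham only for 67 of the 75 lower genes and 21 of the 38 higher genes. It was called in neither surgery for 8 and 17 genes, and in IR for 0. The sham difference was the larger share of the interaction in 71 of 75 lower and 26 of 38 higher genes, and supplied a median of 79.4% and 63.0% of it. Over all tested genes, cKO sham against WT sham gave 142 calls (1.1%), 109 higher (0.847%) and 33 lower (0.256%). That total was 55 without WT sham 2, 73 without WT sham 3, 56 without cKO sham 2 and 68 without cKO sham 3. At an unadjusted p under 0.05 in limma, the sham contrast had 1472 genes, fewer than the 1926 of the IR contrast. cKO IR against WT IR nevertheless gave 0 calls (0%) in limma, with a smallest adjusted p of 0.0513 for Pdp2. limma-voom called 1 gene there. limma called 9 without the filter on the mean, 12 without WT IR 1, 4 without cKO IR 2, 2 without WT IR 3 and 1 without cKO IR 1.

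**Figure D1:**
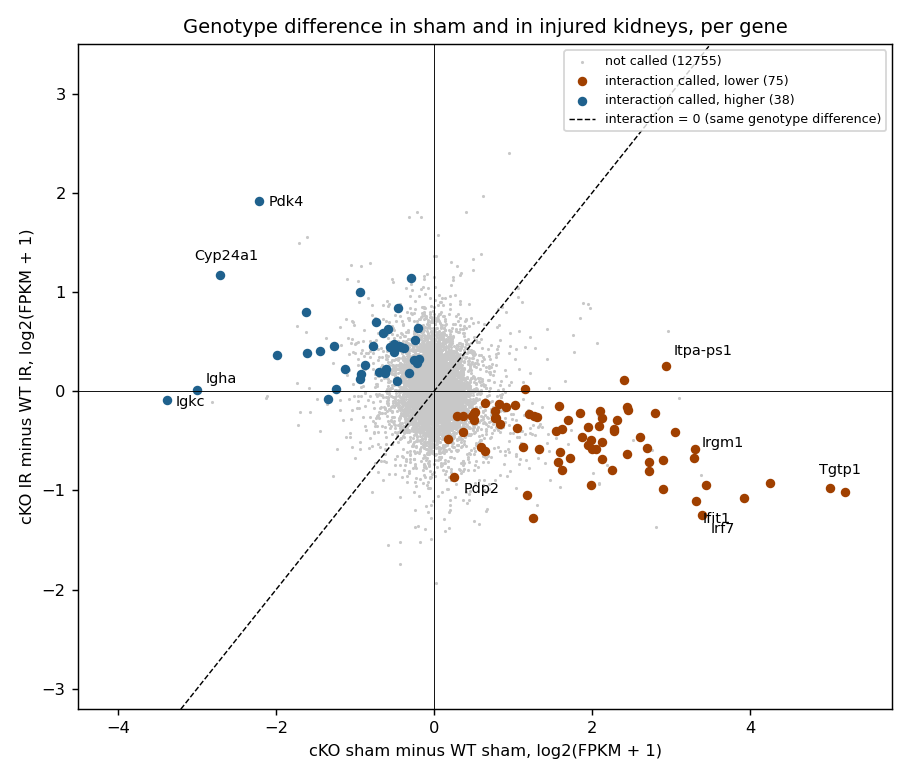
Each point is 1 of 12868 tested genes, placed by its cKO-minus-WT difference in log2(FPKM + 1) in sham (x) and in IR (y), and genes on the dashed line have an interaction of 0. The 75 genes with a called lower response lie to the right of 0 and the 38 with a called higher response lie to the left, so that both sets spread along the sham axis.

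Without a model, the groups were compared by asking which group's 3 libraries all lay above or below the other 9. By this count cKO sham came first in both directions and cKO IR came before WT sham. Of the 75 lower genes, 8 passed the filter only through their cKO sham values, which fixed cKO sham as their highest group. Among the 75 lower genes, cKO sham was above all others in 66, against 3.27% of all tested genes, and cKO IR was below all others in 14, against 3.76%. WT sham was below in 11 (background 5.8%) and WT IR above in 4 (background 0.715%). Among the 38 higher genes, cKO sham was below all others in 24 (background 2.49%), cKO IR above in 17 (background 8.39%) and WT sham above in 12 (background 6.06%). WT IR was below all others in 0 of the 113 genes (background 0.381%), and cKO sham above in 0 of the 38. A gene can be counted for more than 1 group. Since the calls came from the same values, these counts say where the calls arose and test nothing.

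Injury itself changed 5424 genes in WT (42.2% of those tested) and 6538 in cKO (50.8%). Of the 75 lower genes, 71 had a called injury effect in cKO, 69 of them a fall. In WT, 23 had one, with 19 rising and 4 falling. The injury effect had opposite signs in WT and cKO in 52 of the 75, with a median of 0.27 in WT and -1.98 in cKO on the log2(FPKM + 1) scale. Of the 38 higher genes, 30 had a called injury effect in cKO (29 rises) and 27 in WT (8 rises and 19 falls), and the signs were opposite in 18. The median difference between cKO IR and WT IR was -0.42 for the lower genes and 0.40 for the higher genes. It was negative in 72 of the 75 and positive in 36 of the 38. Since the interaction contains this difference, choosing genes by the interaction favours these signs, and the counts test nothing. None of these IR differences passed the adjusted threshold.

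The targeted gene, Krt20, a keratin of intermediate filaments, had 0.0384, 0 and 0.157 FPKM in WT sham and 0.0343, 0 and 0 FPKM in cKO sham. In WT IR it had 84.0, 64.9 and 59.9 FPKM and in cKO IR 28.2, 35.6 and 47.0 FPKM. Injury raised it in both genotypes, and the IR groups did not overlap, with transcript present in every cKO IR library. Its level in sham was too low to check the sham labels. The interaction of Krt20 was -0.84 and was not called (SE 0.24, adjusted p = 0.130 in limma). It became 0.12 in limma-voom, with 0 to 4 reads in each sham library. The difference between cKO IR and WT IR was -0.91 and was not called either (adjusted p = 0.132 in limma). The exact permutation p between WT IR and cKO IR was 0.1, the smallest that 3 against 3 libraries can give. Prdx2, a peroxiredoxin named in the series title, had an interaction of 0.23 (adjusted p = 0.409).

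Sequencing depth was 13187531 to 15962303 reads per library. Mitochondrially encoded reads were 9.82% to 10.4% of WT sham libraries, 8.11% to 8.47% of cKO sham, 7.94% to 9.07% of WT IR and 7.29% to 8.78% of cKO IR. WT IR 2 lay between the sham and the other IR libraries on the first principal component. The labels give kidney as the tissue, while their extraction text mentions retina. Of 9 retina genes only Pde6a reached the filter, at 2.19 to 5.36 FPKM in sham. Proximal tubule markers summed to 29714 to 39287 FPKM in the sham libraries. Their median interaction was -0.26 with 0 of 37 called, beside 0.878% of all tested genes.

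Interferon-inducible GTPases formed the group with the lowest interactions. These proteins, the IRG and GBP families, load onto vacuoles that hold pathogens. Of the 20 genes listed, 18 passed the filter, 17 were called lower and 0 higher, beside 0.583% of all tested genes. The median interaction of the 18 was -3.45, against 0.03 over all genes. Gbp8 and Gbp11 were not tested, Gbp9 was not called (-1.88), and 4 of the 17 (Gbp10, Gbp5, Gm4951 and F830016B08Rik) passed the filter only through their cKO sham values. Summed over the list, FPKM was 812.5 to 1102 in cKO sham, 48.9 to 142.2 in WT sham, 72.8 to 125.3 in WT IR and 43.7 to 59.9 in cKO IR.

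Tgtp1, an IRG GTPase, had 3.81, 1.45 and 0.894 FPKM in WT sham and 4.57, 2.03 and 1.87 FPKM in WT IR. It had 83.2, 116.5 and 73.7 FPKM in cKO sham and 0.449, 1.57 and 0.707 FPKM in cKO IR. Only the cKO sham libraries were high, and none of them overlapped any other library. Its interaction was -5.98 (SE 0.52, adjusted p = 0.000804). The difference between the genotypes was 5.01 in sham (adjusted p = 0.000208) and -0.98 in IR (adjusted p = 0.258). Injury lowered Tgtp1 by -5.61 in cKO (adjusted p = 3.29e-06), whereas the change of 0.37 in WT was not called. Its neighbour Tgtp2 is nearly identical in sequence, so the split of reads between them is uncertain. In Tgtp2, too, only cKO sham was high, with 18.5 to 22.5 FPKM in cKO sham and 0.277 to 3.02 FPKM elsewhere.

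Igtp, the regulatory GTPase also known as Irgm3, had 22.5, 11.3 and 9.92 FPKM in WT sham, 17.6, 14.9 and 9.26 FPKM in WT IR, 195.9, 273.9 and 202.3 FPKM in cKO sham and 5.39, 7.73 and 4.77 FPKM in cKO IR. The cKO sham libraries were highest, and the cKO IR libraries lay below all of WT. Its interaction was -5.00 (SE 0.43, adjusted p = 0.000804). Irgm2 and Irgm1, the other regulatory members, had interactions of -4.39 (adjusted p = 0.000804) and -3.96 (adjusted p = 0.00542). Irgm1 rose to 112 to 138 FPKM in cKO sham, where WT sham had 7.61 to 21.8 FPKM. Iigp1, an effector IRG, reached 77.0 to 130 FPKM in cKO sham and at most 7.72 FPKM in any other library, for an interaction of -5.18 (adjusted p = 0.00289). Among guanylate-binding proteins, Gbp6 had 17.5, 28.2 and 16.5 FPKM in cKO sham and 0.326 to 2.30 FPKM elsewhere, with an interaction of -3.88 (adjusted p = 0.00289). All of the genes of this paragraph stayed called without any single library.

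**Figure D2:**
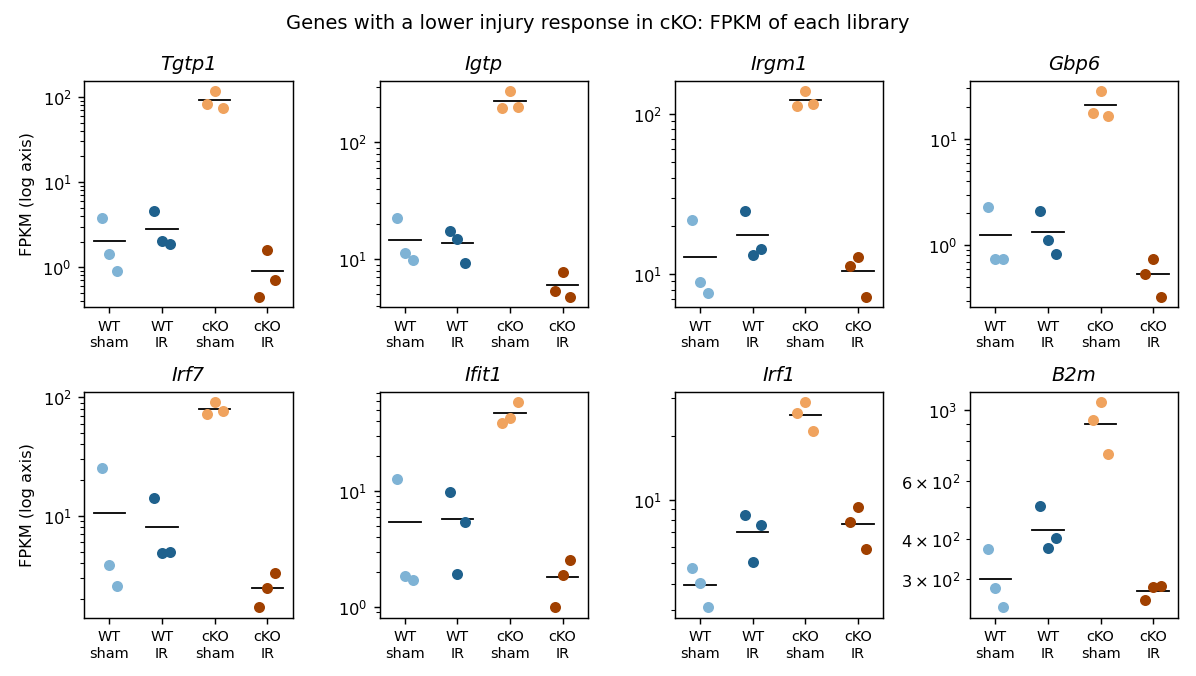
FPKM (log axis) of each library for 8 genes with a called lower injury response, with points for the 3 libraries of a group and a line at their mean. In each panel the cKO sham libraries lie above the other 9, for example 83.2, 116.5 and 73.7 FPKM for Tgtp1 beside at most 4.57 FPKM elsewhere.

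Promoter sequences from RefSeq (GRCm38.p6, 250 bases before to 50 after the annotated start) are shown for 6 of the lower genes that hold an interferon element, chosen after the matches were seen, to show how the elements are placed. The patterns searched on both strands were GAAANNGAAA (ISRE) and TTCNNNGAA (GAS), and the latter reads the same on either strand. Capitals mark the matches.
Tgtp1, chr11:48992197-48992496, minus strand: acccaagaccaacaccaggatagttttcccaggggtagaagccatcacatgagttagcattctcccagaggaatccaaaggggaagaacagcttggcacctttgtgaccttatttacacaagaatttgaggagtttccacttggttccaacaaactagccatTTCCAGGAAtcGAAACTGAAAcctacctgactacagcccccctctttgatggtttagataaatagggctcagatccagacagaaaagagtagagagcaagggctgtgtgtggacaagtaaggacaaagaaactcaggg
Igtp, chr11:58199306-58199605, plus strand: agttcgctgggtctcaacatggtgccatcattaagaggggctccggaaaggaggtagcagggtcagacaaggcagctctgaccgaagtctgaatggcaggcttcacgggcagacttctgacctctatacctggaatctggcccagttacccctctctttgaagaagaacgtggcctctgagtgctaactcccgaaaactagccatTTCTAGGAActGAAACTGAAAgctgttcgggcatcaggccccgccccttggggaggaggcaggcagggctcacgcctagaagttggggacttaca
Irgm2, chr11:58214727-58215026, plus strand: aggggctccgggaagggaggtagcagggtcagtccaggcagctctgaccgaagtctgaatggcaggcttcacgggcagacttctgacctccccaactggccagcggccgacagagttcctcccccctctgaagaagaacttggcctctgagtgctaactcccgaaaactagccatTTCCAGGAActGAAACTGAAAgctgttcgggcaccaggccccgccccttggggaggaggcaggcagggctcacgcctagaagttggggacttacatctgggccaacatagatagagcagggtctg
Irf1, chr11:53769764-53770063, plus strand: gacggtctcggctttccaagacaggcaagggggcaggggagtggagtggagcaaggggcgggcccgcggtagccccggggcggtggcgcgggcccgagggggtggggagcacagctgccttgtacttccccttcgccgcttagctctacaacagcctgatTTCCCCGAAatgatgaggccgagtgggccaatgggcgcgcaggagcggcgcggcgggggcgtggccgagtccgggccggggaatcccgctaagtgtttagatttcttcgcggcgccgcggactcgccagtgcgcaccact
Ifit1, chr19:34640639-34640938, plus strand: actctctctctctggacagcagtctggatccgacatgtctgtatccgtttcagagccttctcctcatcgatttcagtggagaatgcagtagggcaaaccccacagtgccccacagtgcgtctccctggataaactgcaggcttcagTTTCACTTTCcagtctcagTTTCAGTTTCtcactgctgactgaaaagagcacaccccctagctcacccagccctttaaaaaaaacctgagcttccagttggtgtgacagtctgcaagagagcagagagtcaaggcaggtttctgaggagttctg
B2m, chr2:122147437-122147736, plus strand: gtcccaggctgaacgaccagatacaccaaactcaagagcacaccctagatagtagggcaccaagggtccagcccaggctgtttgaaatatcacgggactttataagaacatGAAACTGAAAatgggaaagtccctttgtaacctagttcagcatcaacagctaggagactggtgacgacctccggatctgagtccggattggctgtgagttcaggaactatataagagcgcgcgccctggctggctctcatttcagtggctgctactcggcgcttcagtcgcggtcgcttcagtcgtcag
In Tgtp1, Igtp and Irgm2 a GAS match was followed after 2 bases by an ISRE match. The GAS match began 88, 45 and 75 bases before the start. Igtp and Irgm2 are neighbours on chromosome 11 with closely similar windows, so they are not independent examples. Irf1 held only a GAS match, 90 bases before its first listed start. Ifit1 held 2 ISRE matches on the opposite strand, and B2m held 1 ISRE match 139 bases before its start.

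Across the set, 52 of the 75 lower genes and 26 of the 38 higher genes had a promoter entry. An ISRE match was present in 23 of the 52 lower genes (44.2%) and in 0 of the 26 higher genes. Among the 9295 tested genes with an entry it was present in 3.68%, and among all 27025 symbols of the table in 3.99%. At 3.68%, a set of 26 genes can hold no match, so the 0 of 26 shows no lack. The 23 include related genes, such as Igtp and Irgm2 or Tgtp1 and Tgtp2, and are not independent. They also include Gbp5 and Gm12216, which passed the filter only through cKO sham. A GAS match was present in 14 of the 52 lower genes (26.9%) and 4 of the 26 higher genes (15.4%), beside 7.96% of tested genes. The ISRE matches were found in 18 of 33 lower genes on the interferon lists and in 5 of 19 lower genes outside them. A match is a description of the letters, not a site of binding. Irf7, Tap1 and Psmb9, which were among the lower genes, held neither pattern in this window.

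Of 18 listed receptors, kinases and transcription factors of the interferon pathway itself, 16 were tested and 5 were called lower, beside 0.583% of all tested genes, with a list median of -0.12. The genes called included Irf1, Stat2, Ciita and Nlrc5, which are transcriptional regulators. Irf1, a transcription factor induced by interferon, had 25.7, 28.9 and 21.0 FPKM in cKO sham, 5.06 to 8.42 FPKM in WT IR, 3.09 to 4.75 FPKM in WT sham and 5.85 to 9.25 FPKM in cKO IR. Irf1 rose with injury in WT (0.69, adjusted p = 0.0200) and fell in cKO (-1.61, adjusted p = 0.000118), and its IR groups overlapped. Stat2 had an interaction of -2.43 (adjusted p = 0.0329), but it was called only without WT sham 1 or WT IR 2 among the fits that left out 1 library, with adjusted p up to 0.102.

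Ciita, the master regulator of MHC class II genes, and Nlrc5, its counterpart for class I, had interactions of -2.64 (adjusted p = 0.0198) and -2.31 (adjusted p = 0.0186). Ciita had 6.58, 10.1 and 6.50 FPKM in cKO sham and 0.441 to 3.32 FPKM elsewhere. Both lost the call without WT sham 2, cKO sham 2 or cKO IR 1, Ciita also without WT sham 3, with adjusted p up to 0.0631 and 0.0619. The receptors and their kinases differed less. Ifngr1, Ifngr2, Ifnar1, Ifnar2, Jak1, Jak2 and Tyk2 had interactions of -0.10 to 0.48, and none was called. Ifng, the ligand, had 1 read in WT IR 3, 1 read in cKO sham 3 and 0 reads in the other 10 libraries. This is under the limit of 3 reads that a count of 0 allows in each library, for counting error only.

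In antigen processing and presentation, calls were made in 1 direction. All 24 listed genes were tested, all 24 interactions were negative, 13 were called lower and 0 higher, beside 0.583% of all tested genes called lower, and the median was -1.56. The call count was 7 without cKO sham 2 and 8 without WT sham 2 or cKO IR 1. B2m, the light chain of MHC class I, had 371.8, 281.7 and 245.1 FPKM in WT sham and 502.2, 374.6 and 400.8 FPKM in WT IR. It had 926.9, 1055 and 728.7 FPKM in cKO sham and 258.8, 282.6 and 284.8 FPKM in cKO IR. Injury raised B2m in WT (0.52, adjusted p = 0.0410) and lowered it in cKO (-1.70, adjusted p = 4.26e-05). The cKO IR libraries lay within the range of WT sham and below all of WT IR. Its interaction was -2.21 (SE 0.26, adjusted p = 0.00336).

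Tap1, a subunit of the peptide transporter, had 26.7, 38.8 and 29.7 FPKM in cKO sham and 2.96 to 6.97 FPKM elsewhere, with an interaction of -3.06 (SE 0.35, adjusted p = 0.00336). The immunoproteasome subunits Psmb9 and Psmb8 had interactions of -2.81 (adjusted p = 0.00336) and -2.58 (adjusted p = 0.00777). Psmb9 reached 11.0, 14.3 and 11.3 FPKM in cKO sham and 0.752 to 3.89 FPKM elsewhere. H2-T23, a nonclassical class I gene, fell with injury in both genotypes. It had 53.0, 36.9 and 35.7 FPKM in WT sham, 21.3 ± 2.89 FPKM in WT IR (mean ± SD, n = 3), 88.4, 121 and 109 FPKM in cKO sham and 12.3, 12.3 and 17.2 FPKM in cKO IR. Its fall was -0.93 in WT and -2.85 in cKO, and the interaction was -1.92 (adjusted p = 0.00858). Tap1, Psmb9, Psmb8, B2m and H2-T23 stayed called without any single library.

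Antiviral genes respond mainly to type I interferon. Their summed FPKM was 153.2 to 518.3 in WT sham, 195.5 to 359.0 in WT IR, 958.5 to 1195 in cKO sham and 137.6 to 157.9 in cKO IR, so the libraries differed most within WT sham. All 32 listed genes were tested, and the interaction was negative in all 32. The median was -2.18, 10 genes were called lower and 0 higher, beside 0.583% of all tested genes called lower. Irf7, the factor that amplifies type I interferon, had 25.2, 3.85 and 2.56 FPKM in WT sham, 14.1, 4.90 and 4.97 FPKM in WT IR, 71.8, 91.1 and 75.9 FPKM in cKO sham and 1.69, 2.48 and 3.28 FPKM in cKO IR. WT sham 1 and WT IR 1 stood above the other libraries of their groups. The interaction of Irf7 was -4.63 (SE 0.89, adjusted p = 0.0419). It was called without WT sham 1 (adjusted p = 0.000541) and lost its call without each of the other 11 libraries, with adjusted p up to 0.115. Ifit1, which binds viral RNA, had 12.8, 1.85 and 1.70 FPKM in WT sham, 9.85, 1.91 and 5.42 FPKM in WT IR, 38.7, 42.8 and 58.4 FPKM in cKO sham and 0.990, 1.87 and 2.54 FPKM in cKO IR. Its interaction of -4.42 (adjusted p = 0.0453) was called without WT sham 1 or WT IR 2 and lost without each of the other 10 libraries. The list held 26 called genes without WT sham 1 and 1 called gene without WT sham 2, cKO sham 2, cKO sham 3 or cKO IR 1. It held 3 or 4 without each of the remaining libraries other than WT IR 2.

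Dtx3l, a ubiquitin ligase that pairs with PARP9, kept its call without any single library. It had 12.4, 18.7 and 16.8 FPKM in cKO sham and 2.91 to 7.14 FPKM elsewhere, with an interaction of -2.39 (SE 0.31, adjusted p = 0.00619). Parp9 (-2.49) and Parp14 (-3.07) lost the call without WT sham 2, cKO sham 2, cKO sham 3 or cKO IR 1, with adjusted p up to 0.0640 and 0.0631. Bst2, or tetherin, had 60.5, 15.9 and 14.2 FPKM in WT sham and 145, 186 and 165 FPKM in cKO sham, for an interaction of -3.53 (adjusted p = 0.0248, and up to 0.0834 with a library left out). Of 15 listed genes for interferon gamma-induced chemokines and enzymes, 9 were tested and 1 was called, beside 0.583% of all tested genes called lower. That gene was Cd274, which encodes PD-L1, with 11.5, 13.8 and 11.4 FPKM in cKO sham and 0.517 to 3.82 FPKM elsewhere. Its interaction was -2.38 (adjusted p = 0.0145, and 0.0563 without cKO sham 2). Cxcl10, a chemokine for T cells, had an interaction of -3.01 that was not called (adjusted p = 0.0534).

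Over the 5 interferon lists together, 99 of 109 genes were tested, 46 were called, all of them lower (0.583% over all tested genes), and 94 had a negative interaction. At least 4 of the 99 passed the filter only through cKO sham, and the lists were chosen with earlier results of these data known. High values in cKO sham were therefore partly fixed by the choice of genes. The mean of log2(FPKM + 1) over the 99 genes was 4.21, 4.54 and 4.41 in cKO sham libraries 1, 2 and 3. It was 3.34, 2.53 and 2.44 in WT sham, 3.20, 2.61 and 2.92 in WT IR and 2.32, 2.61 and 2.54 in cKO IR. WT sham 1 and WT IR 1 were thus the highest libraries of their groups. cKO IR overlapped WT sham and lay just below WT IR, with 2.610 in its highest library against 2.614 in the lowest of WT IR. Among the 46 called genes, WT sham 1 was the highest WT sham library for 43 and WT IR 1 the highest WT IR library for 42. In the cKO groups, cKO sham 2 was the highest for 42 of the 46 and cKO IR 2 for 30. Markers of T and NK cells, the usual producers of Ifng, summed to 4.41 to 7.67 FPKM in cKO sham and 8.45 to 11.6 FPKM in WT sham. After injury the sums were 3.36 to 7.31 FPKM for WT and 1.33 to 3.41 FPKM for cKO, and none of the 16 genes reached the filter. The macrophage and dendritic cell list summed to 64.6 to 98.1 FPKM in cKO sham and 56.8 to 81.7 FPKM in WT sham, ranges that overlapped. Of its 11 tested genes 0 were called, beside 0.878% of all tested genes. The part of these cells in the interferon values was not tested.

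**Figure D3:**
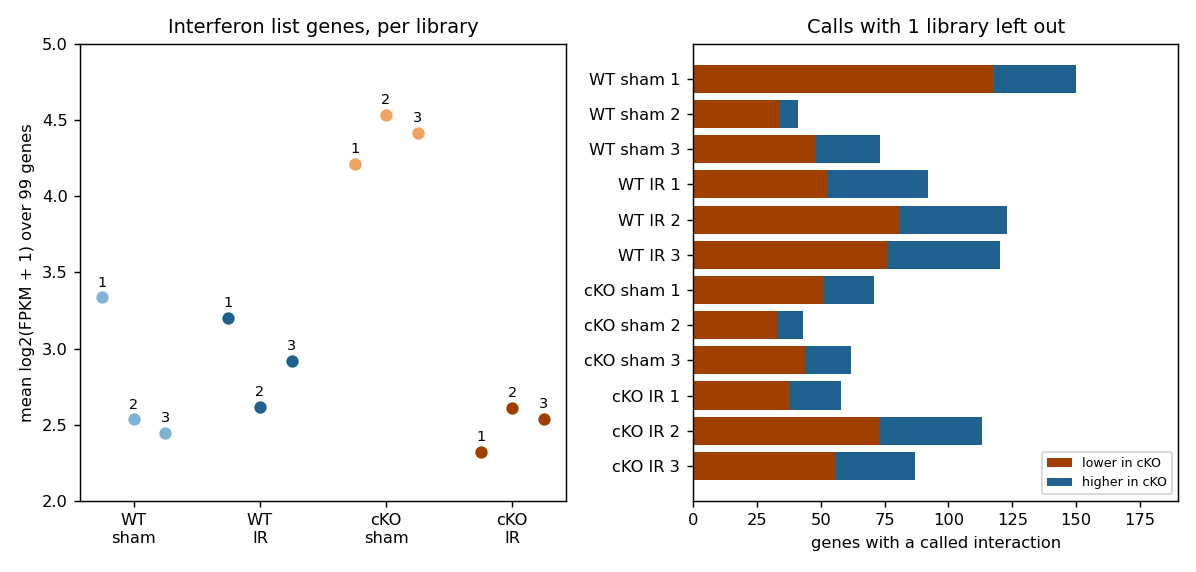
Left, the mean log2(FPKM + 1) of the 99 tested interferon list genes in each library, with replicate numbers beside the points. Right, the number of genes with a called interaction when the named library was left out, split into lower and higher in cKO. cKO sham libraries lie at 4.21 to 4.54 and no other library exceeds 3.34, and calls range from 41 to 150. At least 4 of the 99 genes passed the filter only through cKO sham.

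A total of 48 of the 75 lower genes were on some list, and the group mean was highest in cKO sham for 69 of the 75, of which 8 passed the filter only through that group. Itpa-ps1, a processed pseudogene of Itpa, had the smallest p-value of all genes and was named after its values were seen. It had 18.7, 19.5 and 17.8 FPKM in cKO sham (169, 169 and 155 reads) and 10 to 30 reads in each other library, for an interaction of -2.68 (adjusted p = 0.000804). Its parent Itpa, which removes noncanonical purine nucleotides, was called in the other direction, with 247 to 273 reads in cKO sham and 324 to 376 in WT sham. In IR, Itpa had 531 to 651 reads in WT and 552 to 697 in cKO. Itpa kept its call in 1 of the 12 fits that left out a library. Reads of a processed pseudogene and its parent can be assigned to either, so both values are uncertain.

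A smaller set concerned growth and DNA replication. Of 27 listed genes of DNA replication and the cell cycle, 21 were tested and all 21 interactions were negative, with a median of -0.77, while 2 were called lower. Over all tested genes 45.2% were negative and 0.583% called lower. Mcm5, a subunit of the replicative helicase, had 1.37, 1.32 and 0.926 FPKM in WT sham, 14.8, 12.9 and 19.2 FPKM in WT IR, 2.22, 2.65 and 2.13 FPKM in cKO sham and 8.82, 12.3 and 9.66 FPKM in cKO IR. It rose with injury in both genotypes, by 2.90 in WT and 1.75 in cKO. The interaction of -1.16 (SE 0.22, adjusted p = 0.0380) was split about evenly, with 0.60 from sham and -0.56 from IR, neither called. Ccnd1, cyclin D1, rose with injury in WT (0.88, adjusted p = 0.000788), while its change in cKO was -0.16. It had 19.0 to 25.8 FPKM in WT sham and 34.3 to 44.2 FPKM in cKO sham, and its interaction was -1.04 (adjusted p = 0.0406). Mcm5 kept its call in 4 and Ccnd1 in 1 of the 12 fits that left out a library, with adjusted p up to 0.111 and 0.0955.

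Pdp2, a phosphatase that activates pyruvate dehydrogenase, came nearest to a difference in the injured kidneys and was also named after its values were seen. It had 13.0, 11.7 and 13.1 FPKM in WT sham and 7.93, 9.16 and 9.15 FPKM in WT IR. It had 15.8, 15.7 and 14.3 FPKM in cKO sham and 5.22, 3.97 and 3.94 FPKM in cKO IR. cKO sham was thus the highest group and cKO IR the lowest, with no overlap. The interaction was -1.12 (SE 0.14, adjusted p = 0.00542), with -0.86 of genotype difference in IR (adjusted p = 0.0513) and 0.26 in sham (adjusted p = 0.331).

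The gene with the most positive interaction, Pdk4, acts against Pdp2, as a kinase that inactivates pyruvate dehydrogenase and is induced in fasting. It had 24.0, 20.2 and 17.6 FPKM in WT sham and 6.18, 6.16 and 15.3 FPKM in WT IR. It had 4.23, 3.45 and 3.24 FPKM in cKO sham and 31.0, 25.1 and 53.1 FPKM in cKO IR. The order of the genotypes was opposite in sham and in IR. Injury lowered Pdk4 in WT (-1.18, adjusted p = 0.0145) and raised it in cKO (2.95, adjusted p = 5.38e-05). The interaction was 4.13 (SE 0.46, adjusted p = 0.00336), made up of -2.21 in sham (adjusted p = 0.00883) and 1.92 in IR (adjusted p = 0.132). Of 32 listed genes of fatty acid oxidation and PPAR alpha targets, 29 were tested, 27 had a positive interaction, the median was 0.49, and Pdk4 was the only call, beside 0.295% of all tested genes called higher.

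Irs2, an adaptor of the insulin receptor, showed another form. It had 18.1, 20.8 and 18.5 FPKM in WT sham, 6.36, 5.07 and 3.91 FPKM in WT IR, 6.28, 6.40 and 4.35 FPKM in cKO sham and 6.28, 8.15 and 6.34 FPKM in cKO IR. WT sham alone was high. Injury lowered Irs2 in WT (-1.74, adjusted p = 5.18e-05), with a change of 0.25 in cKO that was not called. The interaction was 1.99 (SE 0.24, adjusted p = 0.00374). Etv5, an ETS factor downstream of growth factor signalling that was named after its values were seen, followed Irs2, with 8.38 to 9.54 FPKM in WT sham and 3.40 to 4.71 FPKM in the other groups. Depp1, a FOXO target, had 6.54, 7.95 and 4.83 FPKM in WT sham and 0.595 to 3.62 FPKM elsewhere. Its interaction was 2.42 (adjusted p = 0.0294), and 8 of the 12 fits that left out a library lost the call (adjusted p up to 0.0900). Pdk4, Irs2 and Etv5 stayed called without any single library. WT sham also stood apart in its mitochondrial share (9.82% to 10.4%, against at most 9.07% elsewhere), and the part of this in the WT sham values was not tested.

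Cyp24a1, which degrades vitamin D hormone, had 85.5, 48.5 and 62.1 FPKM in WT sham, 51.8, 20.2 and 21.2 FPKM in WT IR, 10.8, 11.0 and 5.90 FPKM in cKO sham and 147, 52.7 and 34.9 FPKM in cKO IR. Only cKO sham stood apart, and the IR groups overlapped. The interaction was 3.88 (SE 0.72, adjusted p = 0.0358), called without WT IR 1, cKO IR 1 or cKO IR 3 and lost without each of the other 9 libraries (adjusted p up to 0.0844). Tmem252, a membrane protein, kept its call without any library. It had 23.4, 29.3 and 22.5 FPKM in WT sham, 18.3, 10.5 and 13.7 FPKM in WT IR, 15.1, 10.5 and 12.5 FPKM in cKO sham and 29.7, 30.2 and 26.1 FPKM in cKO IR. The genotypes changed order with injury, and the interaction was 1.93 (SE 0.26, adjusted p = 0.00777). Glt1d1 (1.35), Anxa13 (1.27) and Hrg (1.26) were highest in WT sham and fell with injury in WT. Anxa13 also fell in cKO (-0.72, adjusted p = 0.00445), while the changes of Glt1d1 and Hrg in cKO were not called. Hrg passed the filter only through WT sham, which fixed WT sham as its highest group. Glt1d1 kept its call in 8, Anxa13 in 2 and Hrg in 1 of the 12 fits that left out a library, with adjusted p up to 0.111.

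Immunoglobulin transcripts were low in cKO sham. Igkc, the kappa light chain, had 19.3, 24.6 and 12.5 FPKM in WT sham, 7.96, 3.06 and 5.44 FPKM in WT IR, 0.621, 0.259 and 2.06 FPKM in cKO sham and 3.65, 4.98 and 5.96 FPKM in cKO IR. Igha, the IgA heavy chain, had 7.80, 9.24 and 6.39 FPKM in WT sham, 2.89, 1.04 and 1.77 FPKM in WT IR, 0, 0.0774 and 0.206 FPKM in cKO sham and 1.24, 2.06 and 2.28 FPKM in cKO IR. For both, cKO sham was the lowest group and WT sham the highest. The interactions were 3.29 (SE 0.52, adjusted p = 0.0191) for Igkc and 3.01 (SE 0.32, adjusted p = 0.00289) for Igha. Igkc lost its call without WT sham 2, cKO sham 1 or cKO sham 2 (adjusted p up to 0.0604), and Igha kept its call throughout. Injury lowered both in WT and raised both in cKO, while the IR groups overlapped and differed by -0.09 and 0.01. Ighm, the IgM heavy chain, did not follow them, with 2.90 to 4.44 FPKM in WT sham, 3.14 to 3.86 FPKM in cKO sham and an interaction of -0.28 (adjusted p = 0.623). Of the 15 genes of the list, only these 3 reached the filter, and 2 were called higher, beside 0.295% of all tested genes. Its summed FPKM was 29.4 to 46.3 in WT sham, 5.50 to 8.49 in cKO sham, 7.12 to 14.8 in WT IR and 6.47 to 13.5 in cKO IR.

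**Figure D4:**
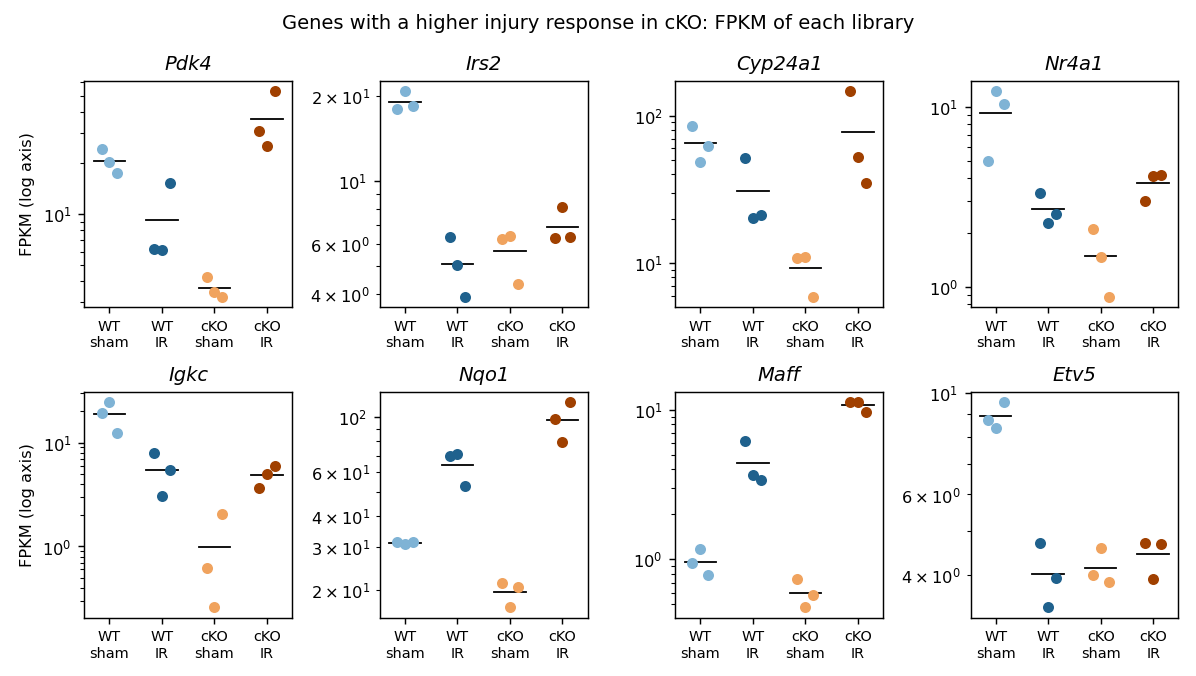
FPKM (log axis) of each library for 8 genes with a called higher injury response, with points for the 3 libraries of a group and a line at their mean. Pdk4 is lowest in cKO sham (3.24 to 4.23 FPKM) and highest in cKO IR (25.1 to 53.1 FPKM), while Irs2 and Etv5 are high in WT sham alone.

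Immediate early genes respond to stimuli within minutes. A list of these and of heat shock genes gave 2 calls among 27 tested of 28 listed, beside 0.295% of all tested genes called higher. Its median was 0.67, with 21 positive values, and Nr4a1 was 1 of the 2 calls. Nr4a1, an orphan nuclear receptor, had 5.02, 12.2 and 10.3 FPKM in WT sham, 3.33, 2.26 and 2.53 FPKM in WT IR, 2.09, 1.47 and 0.880 FPKM in cKO sham and 2.98, 4.14 and 4.19 FPKM in cKO IR. WT sham was high and cKO sham low, with an interaction of 2.35 (SE 0.39, adjusted p = 0.0209). Csrnp1, a nuclear protein outside this list, had an interaction of 1.72 (adjusted p = 0.0209). Both lost the call without WT sham 2, WT sham 3, cKO sham 2, cKO sham 3 or cKO IR 3 (adjusted p up to 0.0655 and 0.0673).

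Another set rose with injury in both genotypes, and more in cKO. Maff, a small MAF protein that partners NRF2, had 0.942, 1.17 and 0.785 FPKM in WT sham, 6.23, 3.68 and 3.40 FPKM in WT IR, 0.739, 0.477 and 0.582 FPKM in cKO sham and 11.3, 11.3 and 9.63 FPKM in cKO IR. cKO IR was above all other libraries, and the larger part of the interaction of 1.44 (SE 0.24, adjusted p = 0.0216) came from IR (1.14, adjusted p = 0.132). Nqo1, a quinone reductase and NRF2 target, had 31.3, 30.8 and 31.3 FPKM in WT sham, 69.6, 70.8 and 52.7 FPKM in WT IR, 21.4, 17.1 and 20.6 FPKM in cKO sham and 98.6, 79.2 and 115 FPKM in cKO IR. It was lowest in cKO sham and highest in cKO IR, and its interaction was 1.23 (SE 0.21, adjusted p = 0.0247). Nqo1 was the only call among 26 tested of 29 listed NRF2 and glutathione genes, of which 22 were positive with a median of 0.43. Over all tested genes 0.295% were called higher. Tsc22d1, a leucine zipper protein, and Slc20a1, a phosphate transporter, had interactions of 1.28 and 1.43 of the same form. Maff lost its call without WT sham 2, cKO sham 2, cKO sham 3 or cKO IR 1, and Nqo1 without these or WT sham 3 (adjusted p up to 0.0748 and 0.0806). Tsc22d1 kept it in 4 and Slc20a1 in 2 of the 12 fits.

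The established markers of tubular injury had no called interaction, beside 0.878% of all tested genes called. Of 26 listed, 22 were tested, 16 were positive and the median was 0.34. Havcr1, or KIM-1, had 0.26 to 0.51 FPKM in WT sham, 484.9 to 796.8 FPKM in WT IR, 0.29 to 1.25 FPKM in cKO sham and 981.8 to 1163 FPKM in cKO IR. The IR groups did not overlap, but its interaction was 0.40 (SE 0.31, adjusted p = 0.607). Lcn2, or NGAL, had an interaction of 1.03 (SE 0.36, adjusted p = 0.216). A p that missed the threshold does not show that the response was alike. No gene of the peroxiredoxin (19 tested), ferroptosis (21 tested), keratin and desmosome (14 tested) or exosome (21 tested) lists was called, with medians of 0.17, 0.08, 0.09 and 0.15. Over all tested genes 0.878% were called, so lists of this size can lack a call at that share.

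**Figure D5:**
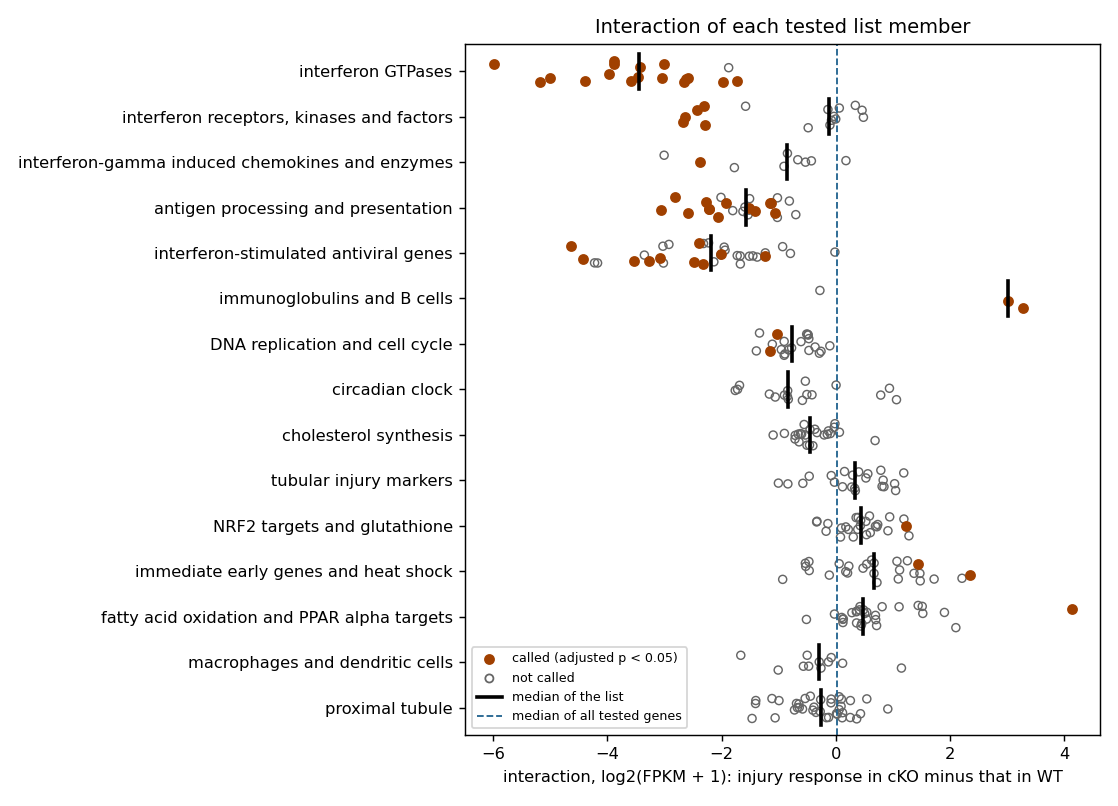
The interaction of each tested member of 15 gene lists on the log2(FPKM + 1) scale, filled where called, with a bar at the list median and a dashed line at the median of all tested genes (0.03). The interferon GTPases have a median of -3.45, and the fatty acid oxidation list has 1 called gene, Pdk4, at 4.13.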

How the data were processed

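RNA from mouse kidney was sequenced in 12 libraries, grouped by the genotype and treatment in the labels. The authors deposited 1 table of FPKM per gene and library, used as deposited. Per the submitters' processing notes, reads were aligned with HISAT2 2.2.1 and the builds mm8 and mm9 were named. A counting program and an annotation are not named in the sources used here. Products of FPKM and gene length were whole multiples of 1 step per library, which gave the reads. These were used for depths and for limma-voom as an alternative.

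log2(FPKM + 1) of genes averaging 1 FPKM or more was fitted in limma 3.58.1 (R 4.3.3), with 1 mean per group and a variance trend, and tested two-sided in 5 contrasts with Benjamini-Hochberg adjustment. The script was run on simulated reads with changes placed in cKO IR only and the same spread for every gene. Since these data differ in both respects, that run checks the code and not the calls. Krt20 and Prdx2 were also compared by exact permutation of FPKM. With 3 libraries against 3 its smallest p is 0.1. Replicate numbers were not used to pair the libraries, and a check that cannot decide pairing is given with the sensitivity of the results.

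The members, the 35 gene lists and the tests were chosen with earlier results of these data known. The genes named were Krt20, Prdx2, the 15 called genes with the largest interaction in each direction (no clone names or pseudogenes) and up to 5 called members per list, or 2 by smallest p. A gene that this rule chose is not reported here. Itpa-ps1, Itpa, Pdp2 and Etv5 were described outside it, after their values were seen. Identifiers, not symbols, kept genes apart, since 77 symbols were repeated. The build of the table's coordinates was not established, so none are printed. Promoters came from RefSeq (GRCm38.p6) by symbol, read with Python 3.11.15. Alternatives varied the pseudocount, filter, scaling, variance model, replicate block and the libraries included.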

Additional observations from a re-analysis of the deposited data

Results flagged for a closer look

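The response to injury differed between the genotypes by the interaction term itself for 113 genes, and the 45 of them that the naming rule chose are given here. Values are interactions on the log2(FPKM + 1) scale, cKO response minus WT response, each with an adjusted p under 0.05 in limma. Lower in cKO were the GTPases Tgtp1 (-5.98), Iigp1 (-5.18), Igtp (-5.00), Irgm2 (-4.39), Irgm1 (-3.96), Ifi47 (-3.88), Gbp6 (-3.88), Tgtp2 (-3.47) and Gbp3 (-3.43). The regulators Irf1 (-2.29), Nlrc5 (-2.31), Ciita (-2.64) and Stat2 (-2.43) were lower as well. So were Tap1 (-3.06), Psmb9 (-2.81), Psmb8 (-2.58), B2m (-2.21) and H2-T23 (-1.92) of antigen presentation and the antiviral genes Irf7 (-4.63), Ifit1 (-4.42), Bst2 (-3.53), Oasl1 (-3.26), Parp14 (-3.07), Dtx3l (-2.39), Parp9 (-2.49) and Samd9l (-1.25). The remaining lower genes of the 45 were Cd274 (-2.38), Mcm5 (-1.16) and Ccnd1 (-1.04). Higher in cKO were Pdk4 (4.13), Cyp24a1 (3.88), Depp1 (2.42), Irs2 (1.99), Slc20a1 (1.43), Glt1d1 (1.35), Anxa13 (1.27) and Hrg (1.26). The immunoglobulin genes Igkc (3.29) and Igha (3.01) were higher, as were Nr4a1 (2.35), Csrnp1 (1.72), Maff (1.44), Nqo1 (1.23), Tmem252 (1.93) and Tsc22d1 (1.28). Of the 45, 19 were called whichever single library was left out.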

How the results depend on the processing

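Over 23 alternatives, the 113 calls kept their direction wherever tested, and 36 genes were called in every setting tested. The number of genes called in cKO IR against WT IR was 0 as reported and 1 with a pseudocount of 0.1, a mean of at least 5 FPKM, median ratio scaling, 75th percentile scaling, robust eBayes, voom on recovered reads or FPKM rescaled to library totals. Under each of these the genes with a genotype call in IR only also numbered 1. Without a filter on the mean, 9 genes were called in IR, and of the interaction calls 8 had a genotype call in IR only and 11 in neither surgery. There, 21 calls had the same sign and a larger response in cKO, 2 the same sign and a smaller one, and 3 antiviral genes were called lower. With a mean of at least 5 FPKM, 41 calls had a genotype call in neither surgery and 4 had the same sign and a smaller response. voom gave 132 lower calls and 54 with a genotype call in neither. FPKM rescaled to library totals, an alternative chosen after seeing the data, gave 45 in neither. The causes of these shifts were not tested.

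With 1 library left out at a time, the lower calls numbered 33 to 118 and the higher calls 7 to 44. Genotype calls numbered 55 to 208 in sham and 0 to 12 in IR (12 without WT IR 1, 4 without cKO IR 2). The interaction calls had a genotype call in sham only for 33 to 125 genes, in IR only for 0 to 8, in both for 0 to 1 and in neither for 7 to 44. Opposite signs were seen in 28 to 111, the same sign with a larger response in cKO in 11 to 43 and with a smaller one in 0 to 14. Lower calls numbered 12 to 18 among interferon GTPases, 7 to 14 in antigen presentation and 1 to 26 among antiviral genes.

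Replicate numbers were not used to pair the libraries in the reported fit. Over 18 same-numbered pairs of libraries, the correlation of deviations from the group means was -0.19 to 0.40 (median -0.01). It was over 0.1 in 4 of them and highest between WT IR 3 and cKO IR 3. Correlations over all tested genes cannot show whether the numbers pair the libraries, so pairing was left undecided. A fit with a replicate block gave 73 calls, 51 lower and 22 higher, of which 67 were shared with the reported ones. Under the replicate block 12 had a genotype call in neither surgery, 16 had the same sign and a larger response in cKO, 3 the same sign and a smaller one, and 4 antiviral genes were called lower.

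Named genes without a call that changed sign were Krt20 (0.12) and Pde6a (-0.66) under voom, and some that left-out libraries moved across 0: S100a9 (-0.96 to 0.099), Csf3r (-0.72 to 0.13) and Tek (-0.94 to 0.024), all positive only without WT IR 3, and Star (-0.000776 to 0.25), negative only without cKO IR 2. Depth limits genes such as Ifng, with 0 or 1 read per library.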

Other observations

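Clock genes had no called interaction, beside 0.878% of all tested genes called, but most values were negative. Of 21 listed, 17 were tested, 13 were negative and the median was -0.83. Per2, a repressor of the clock, had 3.91, 3.60 and 6.99 FPKM in WT sham, 11.5, 11.3 and 7.44 FPKM in WT IR, 12.8, 11.7 and 9.96 FPKM in cKO sham and 4.41, 9.68 and 5.71 FPKM in cKO IR. Its interaction was -1.72 (SE 0.39, adjusted p = 0.0706). Cry1, its partner, had an interaction of -0.84 (adjusted p = 0.0629) and was higher in cKO sham than in WT sham (0.65, adjusted p = 0.0424). The labels give no hour of tissue collection. Cholesterol synthesis genes were likewise negative in 22 of 24, with a median of -0.46 and 0 calls, beside the same 0.878%.

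Cfd, or adipsin, which marks fat tissue, reached 5.51 FPKM in WT IR 2 and 7.52 FPKM in WT IR 3, with at most 0.143 FPKM in the other 10 libraries. Its interaction of -1.96 was not called (adjusted p = 0.327). Hba-a1, a hemoglobin chain, had 141, 120 and 403 FPKM in WT sham libraries 1 to 3, with an interaction of 1.29 (adjusted p = 0.536).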
